A study of Homo sapiens with 3 samples.

Results

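RNA sequencing of H9 cells counted 58051 genes, and 10 of them, subunit genes of the Polycomb repressive complexes, are described here. They were taken by name with no cut on level, but the choice was made with earlier results of these data known. The genes are EZH1, EZH2, EED, SUZ12 and JARID2 of Polycomb repressive complex 2 (PRC2), and RING1, RNF2, CBX2, CBX7 and PCGF6 of Polycomb repressive complex 1 (PRC1). H9, an established line of human embryonic stem cells, was of wild-type genotype, untreated, and grown on vitronectin in Essential 8 Flex medium. The series has 1 group of 3 replicates, each 1 library of total RNA depleted of ribosomal RNA, and no second condition. Nothing in the labels says that the replicates came from separate cultures, so the spread between them may be technical.

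Polycomb complexes keep developmental genes silent in cells where they are not needed. PRC2 methylates lysine 27 of histone H3 through its EZH1 or EZH2 subunit, and PRC1 places ubiquitin on histone H2A through RING1 or RNF2. Chromodomain subunits of the CBX family let canonical PRC1 bind the mark left by PRC2, whereas variant PRC1 complexes lack CBX and are told apart by their PCGF subunit. In embryonic stem cells these complexes are known for holding regulators of differentiation in a repressed but inducible state.

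The libraries held 10390984, 12024802 and 8655155 reads on genes in replicates 1, 2 and 3, and the 10 genes took 12863, 14169 and 10398 of them, or 0.124%, 0.118% and 0.120%. Levels are given as TPM (transcripts per 1e6 transcripts), in which the count of a gene is divided by the summed length of all its exons in GENCODE release 44 (GRCh38) and scaled to the same total in each library. Genes below 0.01 TPM on average were called nonexpressed, and the other protein-coding genes were divided by level into equal low, medium and high classes, which met at 3.35 and 27 TPM. The labelled cell type was checked first. All 10 pluripotency markers examined were in the high class, between 259 TPM (SALL4) and 2576 TPM (LIN28A). Of 12 markers of differentiated lineages none was high and the median was 1.71 TPM, but the mesendoderm gene MIXL1 reached 22.3 ± 5.66 TPM and the collagen gene COL1A1 14.6 ± 1.43 TPM (SD, n = 3). In a bulk library a low level in all cells and a high level in a few cannot be told apart.

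All 10 genes were detected, each with at least 124 reads in total, and their levels spanned from 2.11 to 391 TPM. The high class held 7 of 10, where 28.8% of all 19629 protein-coding genes stood, 2 were medium (EED and EZH1) and 1 was low (CBX7). Their median was 43.2 TPM against 7.10 TPM over all protein-coding genes. The order from the highest was JARID2, CBX2, RNF2, RING1, SUZ12, EZH2, PCGF6, EED, EZH1 and CBX7. Each gap between neighbours in this order exceeded the larger of their SDs and had the same direction in 3 of 3 replicates, and each gene kept its class in every replicate. The narrowest step, from SUZ12 to EZH2, was 5.00 TPM against an SD of 1.83 TPM. The order held for 41 of 45 pairs when the longest or the canonical transcript of each gene was taken as its length. In both cases EZH2 stood above RNF2, RING1 and SUZ12, directly below CBX2, and EED stood above PCGF6. RING1 and SUZ12 did not differ beyond their spread with either of these lengths. They had 50.4 ± 3.87 and 50.2 ± 1.93 TPM with the longest transcript, and 40.4 ± 3.14 and 40.2 ± 1.55 TPM with the canonical transcript. EED was then in the high class, at 35.2 TPM with the longest and 37.4 TPM with the canonical transcript.

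**Figure D1:**
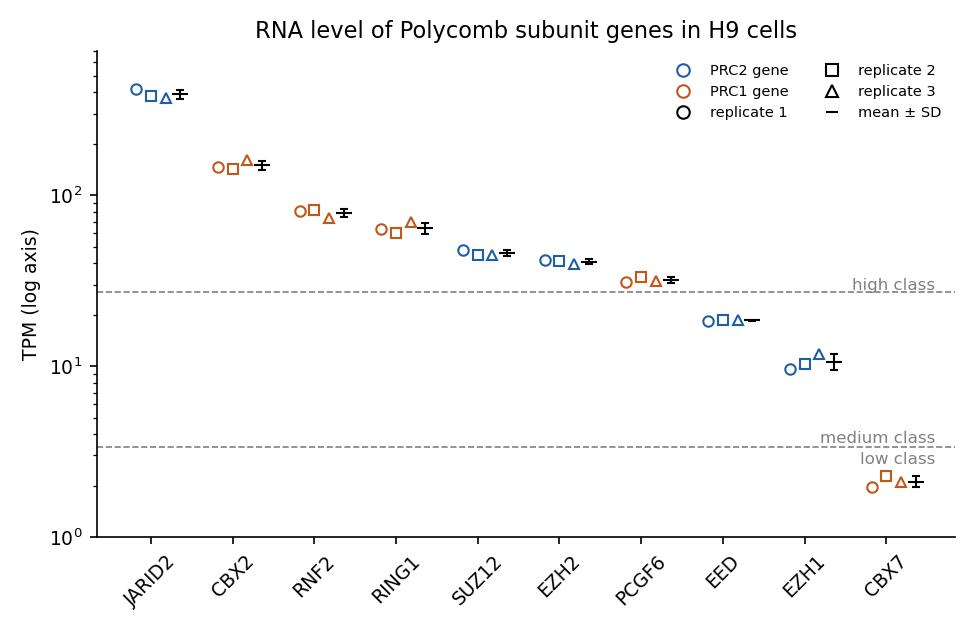
RNA level in TPM (log axis) of the 10 Polycomb genes in each of the 3 H9 replicates, PRC2 genes in blue and PRC1 genes in orange, with the mean ± SD beside the replicates and dashed lines at 3.35 and 27 TPM where the classes meet. JARID2 stands highest at 391 TPM and CBX7 lowest at 2.11 TPM, and the replicates of 1 gene lie close together beside the gaps between genes.

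At the RNA level the catalytic subunit of PRC2 was represented mainly by EZH2. EZH2 (ENSG00000106462, chr7:148807257-148884321, minus strand), the methyltransferase typical of dividing cells, had 1177, 1337 and 939 reads, or 42.0, 41.0 and 39.3 TPM, with a mean of 40.7 ± 1.37 TPM (SD, n = 3). EZH1 (ENSG00000108799, chr17:42700275-42745049, minus strand), its less active paralog that persists in resting cells, had 174, 218 and 183 reads, or 9.57, 10.3 and 11.8 TPM, with a mean of 10.6 ± 1.14 TPM. The levels of the paralogs did not overlap in any replicate. The log2 ratio of EZH2 to EZH1 was 2.13, 1.99 and 1.73 in replicates 1, 2 and 3, a mean of 1.95 ± 0.20 or 3.87-fold, and EZH2 made up 79.4% ± 2.31 of the TPM of the pair. The size of this ratio depended on the length assigned to EZH2. Its 20 annotated transcripts together cover 10774 exon bases, 4.06 times the 2654 bases of the canonical transcript, and with canonical lengths the ratio was 3.38 ± 0.20 on the log2 scale, or 10.4-fold.

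The promoters of this pair are shown because the paralogs differ in level, and what their sequence holds can be read beside that difference. RefSeq (GRCh38.p14) start sites were found for 9 of the 10 genes, all but CBX2, with 11 promoters of 300 bases, from 250 before to 50 after the start. Capitals mark matches, on either strand, to the E2F motif (TTTGGCGC or TTTCGCGC), the CCAAT box, the TATA box (TATAAA), the cAMP response element (TGACGTCA) and the NRF1 motif (GCATGCGC). None of the matches marked below overlap. The first sequence is chr7:148884242-148884541 and the second chr17:42744991-42745290, both read on the minus strand.
EZH2 promoter: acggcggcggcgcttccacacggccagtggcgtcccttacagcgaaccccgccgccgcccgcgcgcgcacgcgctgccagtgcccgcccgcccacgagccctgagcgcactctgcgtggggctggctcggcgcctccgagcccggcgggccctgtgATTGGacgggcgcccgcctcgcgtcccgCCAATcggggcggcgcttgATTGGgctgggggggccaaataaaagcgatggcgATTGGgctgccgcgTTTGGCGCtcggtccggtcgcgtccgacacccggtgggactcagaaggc
EZH1 promoter: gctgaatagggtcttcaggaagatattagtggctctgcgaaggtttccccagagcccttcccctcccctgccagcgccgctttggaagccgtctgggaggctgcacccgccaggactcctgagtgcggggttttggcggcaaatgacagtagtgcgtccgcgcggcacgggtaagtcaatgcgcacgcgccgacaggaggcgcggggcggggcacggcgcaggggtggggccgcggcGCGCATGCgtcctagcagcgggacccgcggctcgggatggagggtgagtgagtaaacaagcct
The EZH2 promoter shown, at the canonical start, held the E2F motif TTTGGCGC from base 2 after the start, in a form found in 0.652% of all 35116 promoters (1.15% for either form). It also held the CCAAT box at 4 places, 94, 66, 47 and 13 bases before the start, and 34.6% of all promoters held at least 1. The other EZH2 promoter in RefSeq, at a start 806 bases away (chr7:148883436-148883735), held no match to any of the motifs. The EZH1 promoter held none of these and had the NRF1 motif on the reverse strand 13 bases before the start, a match found in 3.05% of promoters. GC content was 74.7% for EZH2 and 67.0% for EZH1, against a median of 58.7% over all promoters. A match of letters is a description and does not show binding of a factor in these cells.

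Both genes of the noncatalytic core of PRC2 were expressed, SUZ12 above EED in every replicate. SUZ12 (ENSG00000178691, chr17:31937007-32001038, plus strand), the scaffold that holds the complex together, had 816, 882 and 653 reads, or 47.8, 44.5 and 44.9 TPM, with a mean of 45.8 ± 1.83 TPM (SD, n = 3). EED (ENSG00000074266, chr11:86201212-86278813, plus strand), which binds the methylated histone and stimulates the enzyme, had 333, 395 and 289 reads, or 18.3, 18.7 and 18.6 TPM, with a mean of 18.5 ± 0.203 TPM. EED was the least variable of the 10 genes in TPM, with a coefficient of variation (CV, the SD as a share of the mean) of 1.10%. In library-scaled counts its CV was 2.06%, below the 5.48% that counting alone would give, so its small spread over 3 libraries is not read as a trait of the gene.

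The ratios within the core were steady between replicates but moved with the length used. SUZ12 over EED gave a log2 ratio of 1.30 ± 0.07 with all exons as length, and 0.10 ± 0.07 with canonical transcripts, since the 6995 exon bases of EED are 3.35 times its canonical 2088. For EZH2 over SUZ12 the log2 ratio was -0.17 ± 0.04 with all exons and 1.31 ± 0.04 with canonical transcripts, so which of the pair was higher depended on this choice. EZH2 was above EED under all 3 lengths tried, by 1.14, 1.06 and 1.41 on the log2 scale with all exons, the longest and the canonical transcript. The histone-binding subunits RBBP4 and RBBP7, which PRC2 shares with other complexes, had 197 ± 3.63 and 80.9 ± 3.84 TPM, an order that turned with canonical lengths (143 and 157 TPM).

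**Figure D2:**
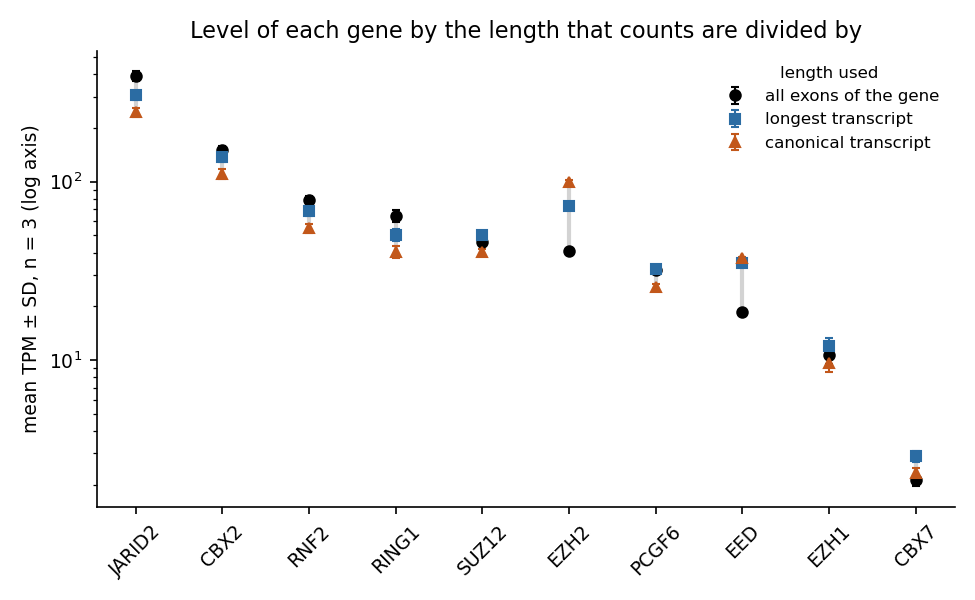
Mean TPM ± SD (n = 3, log axis) of each of the 10 genes when its count was divided by the length of all exons (circles), of the longest transcript (squares) or of the canonical transcript (triangles). EZH2 moved from 40.7 to 99.8 TPM and EED from 18.5 to 37.4 TPM, while JARID2 fell from 391 to 245 TPM and stayed the highest.

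SUZ12 has a transcribed copy, the pseudogene SUZ12P1 (chr17:30731886-30776402, plus strand), with which reads could be shared. Over 1023 aligned bases the copy was 94.9% identical to the canonical SUZ12 transcript, and 413 of the 4446 windows of 50 bases in that transcript were also found in SUZ12P1. Over the whole alignment there were 14 mismatches and 38 gap positions. The pair below shows 60 bases of each transcript, chosen as the stretch without gaps that had the most mismatches. It runs from position 343 of SUZ12 and position 91 of SUZ12P1, with the 3 mismatches in capitals.
SUZ12: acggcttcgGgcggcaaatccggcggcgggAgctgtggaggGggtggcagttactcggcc
SUZ12P1: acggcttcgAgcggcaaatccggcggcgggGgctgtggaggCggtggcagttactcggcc
SUZ12P1 had 161, 206 and 168 reads, or 69.6 ± 7.04 TPM over its 985 exon bases. Had all of those reads belonged to SUZ12, its level would have been 56.2 ± 1.22 TPM and still in the high class. Reads of the pseudogene counted for SUZ12 would instead put SUZ12 lower, and their number is not known. Of the copies of other PRC2 genes, EZH2P1 and EEDP1 had no read in any replicate, and EZH1 and JARID2 shared no 50-base window with another gene. How reads that fit several places were counted is not given in the sources used here. A copy without counted reads could therefore still share reads with its gene. In EED 8.63% of windows were found in another gene, mainly the opposite-strand long noncoding RNA gene ENSG00000288809, for which no counts were analysed here.

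JARID2, an accessory subunit that helps to recruit PRC2 and regulates its activity, was the most abundant of the 10 genes. JARID2 (ENSG00000008083, chr6:15246069-15522042, plus strand) had 6797, 7229 and 5158 reads, or 418, 383 and 372 TPM, with a mean of 391 ± 24.1 TPM (SD, n = 3). It ranked 291 among 19629 protein-coding genes, above 98.5% of them. Replicate 1 was above the other replicates, and all 3 were above every other PRC2 gene examined. JARID2 exceeded SUZ12 by 3.09 ± 0.04 on the log2 scale (8.54-fold) and EZH2 by 3.26 ± 0.05 (9.59-fold). With canonical lengths these were 6.09-fold and 2.46-fold. AEBP2, which shares with JARID2 the form of PRC2 called PRC2.2, was lower by a log2 ratio of 3.27 ± 0.17, at 40.5 ± 3.03 TPM.

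RefSeq gives JARID2 a pair of start sites 2786 bases apart, and both promoters are shown because the gene is the highest of the group. The first is chr6:15245819-15246118, at the canonical start, and the second chr6:15248605-15248904, both on the plus strand, with the same motifs in capitals.
JARID2 promoter at the canonical start: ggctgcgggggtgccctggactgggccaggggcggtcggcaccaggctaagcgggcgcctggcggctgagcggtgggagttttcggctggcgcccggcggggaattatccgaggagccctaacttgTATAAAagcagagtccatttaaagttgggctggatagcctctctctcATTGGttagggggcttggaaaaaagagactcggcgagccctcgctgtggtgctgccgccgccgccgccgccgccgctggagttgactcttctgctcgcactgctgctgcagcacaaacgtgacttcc
JARID2 promoter at the second start: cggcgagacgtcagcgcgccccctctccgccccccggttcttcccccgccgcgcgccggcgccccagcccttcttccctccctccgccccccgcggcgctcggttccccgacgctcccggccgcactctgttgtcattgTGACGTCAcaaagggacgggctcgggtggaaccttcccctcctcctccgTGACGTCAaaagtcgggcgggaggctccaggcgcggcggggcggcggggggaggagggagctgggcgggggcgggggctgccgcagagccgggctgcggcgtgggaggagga
The first held TATAAA 124 bases before the start, which 11.5% of all promoters hold somewhere in the window, and a CCAAT box on the reverse strand 77 bases before it. The second held the cAMP response element TGACGTCA at 111 and 62 bases before the start, a motif found in 1.85% of promoters. Counts per gene do not separate the starts, so the reads cannot be divided between them. Of the remaining genes, EED, SUZ12 and CBX7 held a CCAAT box, and RING1, RNF2 and PCGF6 held no match to the motifs searched.

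The other accessory subunits of PRC2 were below JARID2. Of 8 listed, 4 were high, 3 medium and 1 low, with a median of 23.2 TPM. The highest were MTF2 (88.6 ± 1.30 TPM), a Polycomb-like protein that binds unmethylated CpG-rich DNA, then EPOP (46.1 ± 5.27 TPM), which links PRC2 to elongin, and AEBP2. MTF2 made up 66.5% ± 1.99 of the TPM of the 3 Polycomb-like genes, with PHF1 at 21.5% and PHF19 at 12.0%. The lowest were PHF19 (16.0 ± 0.807 TPM), LCORL (11.9 TPM) and EZHIP, an inhibitor of PRC2, which had 1 read in replicate 1 and 0 in the others, below the 0.713 TPM that a count of 0 allows. The order of EPOP and AEBP2 was not resolved, since in replicate 3 EPOP had 40.7 TPM and AEBP2 43.9 TPM. With canonical lengths they were at 27.8 ± 3.08 and 28.4 ± 2.24 TPM, within their spread.

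RNA of both RING paralogs, the E3 ligase subunits of PRC1, was present at similar TPM. RNF2 (ENSG00000121481, chr1:185045526-185102603, plus strand), also called RING1B, had 827, 968 and 641 reads, or 81.3, 81.9 and 73.9 TPM, with a mean of 79.1 ± 4.44 TPM (SD, n = 3). RING1 (ENSG00000204227, chr6:33208500-33212722, plus strand), also called RING1A, had 298, 331 and 280 reads, or 63.1, 60.3 and 69.6 TPM, with a mean of 64.4 ± 4.74 TPM. RNF2 was the higher in 3 of 3 replicates, but in replicate 3 the values came close. The log2 ratio of RNF2 to RING1 was 0.37, 0.44 and 0.09, a mean of 0.30 ± 0.19 or 1.23-fold, and RNF2 made up 55.1% ± 3.20 of the TPM of the pair. On the same scale the EZH pair stood at 1.95 ± 0.20. The pseudogene RNF2P1 had 19, 14 and 20 reads, and adding all of them to RNF2 gave 80.8 ± 3.98 TPM.

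Of the CBX genes reported, which are not the whole family, CBX2 was the highest, and CBX7 was among the lowest. CBX2 (ENSG00000173894, chr17:79778148-79787983, plus strand), a subunit able to compact nucleosomes, had 146, 143 and 160 TPM, with a mean of 150 ± 8.85 TPM (SD, n = 3) from 6627 reads in all. CBX7 (ENSG00000100307, chr22:39120167-39152680, minus strand), which binds methylated histone H3 in canonical PRC1, had 38, 51 and 35 reads, or 1.95, 2.26 and 2.11 TPM, with a mean of 2.11 ± 0.151 TPM. Every CBX2 value was more than an order of magnitude above every CBX7 value. Their log2 ratio was 6.15 ± 0.14, or 71.1-fold, and 47.9-fold with canonical lengths.

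CBX2 made up 84.5% ± 0.595 of the summed TPM of the 4 CBX genes reported here, CBX2, CBX6, CBX7 and CBX8. CBX6 followed with 13.2% ± 0.667 (23.4 ± 2.75 TPM), then CBX7 with 1.19% ± 0.124 and CBX8 with 1.13% ± 0.229 (1.99 ± 0.377 TPM). The difference between CBX7 and CBX8 was within the spread of the replicates, but not with canonical lengths, which gave 2.31 ± 0.166 and 1.32 ± 0.250 TPM. The 124 reads of CBX7 have a 95% Poisson interval from 103 to 148, which covers counting error only, and a count of 0 would have allowed up to 3 reads, at most 0.181 TPM for this gene.

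The CBX7 counts could include reads of a neighbour. The exons of the long noncoding RNA gene ENSG00000279833 on the opposite strand (chr22:39133090-39136760) cover 17.9% of the CBX7 exon length, and 30.0% of the 50-base windows of the canonical CBX7 transcript lie in it. That gene was counted with 12, 16 and 16 reads, and whether the counting used strand is not given in the sources used here. Adding all of these reads to CBX7 gave 2.87 ± 0.265 TPM, still in the low class. The CBX2 to CBX7 log2 ratio was then 5.71 ± 0.12. That addition bounds only CBX7 reads counted for the neighbour. Reads of the neighbour within the CBX7 count would put CBX7 lower and the ratio higher, and their number is not known. The pseudogene COX5BP7, inside a CBX7 exon on the same strand, had no reads.

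PCGF6 (ENSG00000156374, chr10:103302796-103351144, minus strand), the subunit that defines the variant complex PRC1.6, had 30.9, 33.3 and 31.3 TPM, with a mean of 31.8 ± 1.28 TPM (SD, n = 3) from 754 reads. It stood just inside the high class with all exons as length, and in the medium class, at 25.8 ± 1.00 TPM, with canonical lengths. Its share of the summed TPM of the 6 PCGF genes was 13.4%, 14.8% and 13.8%, a mean of 14.0% ± 0.709. PCGF2, found mainly in canonical PRC1, made up 54.1% ± 0.355 (123 ± 2.33 TPM) and PCGF3 21.1% ± 0.506 (48.2 ± 1.75 TPM), both above PCGF6 in every replicate. PCGF1, the subunit of PRC1.1, followed with 6.87% (15.7 ± 0.954 TPM), BMI1, which is PCGF4, with 2.20% (5.01 ± 0.540 TPM), and PCGF5 with 1.67% (3.81 ± 0.675 TPM, and 2.67 TPM in the low class with canonical lengths). Exons of other genes on the opposite strand cover 61.5% of the PCGF2 exon length and 23.2% of that of PCGF3. For BMI1, exons of other genes on the same strand cover 22.8%. Whether reads were shared with these genes was not tested, so the shares in this family carry that limit. PCGF6 shared 10.9% of its 50-base windows with the pseudogene PCGF7P, a gene named after its values were seen, which had no reads in any replicate.

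**Figure D3:**
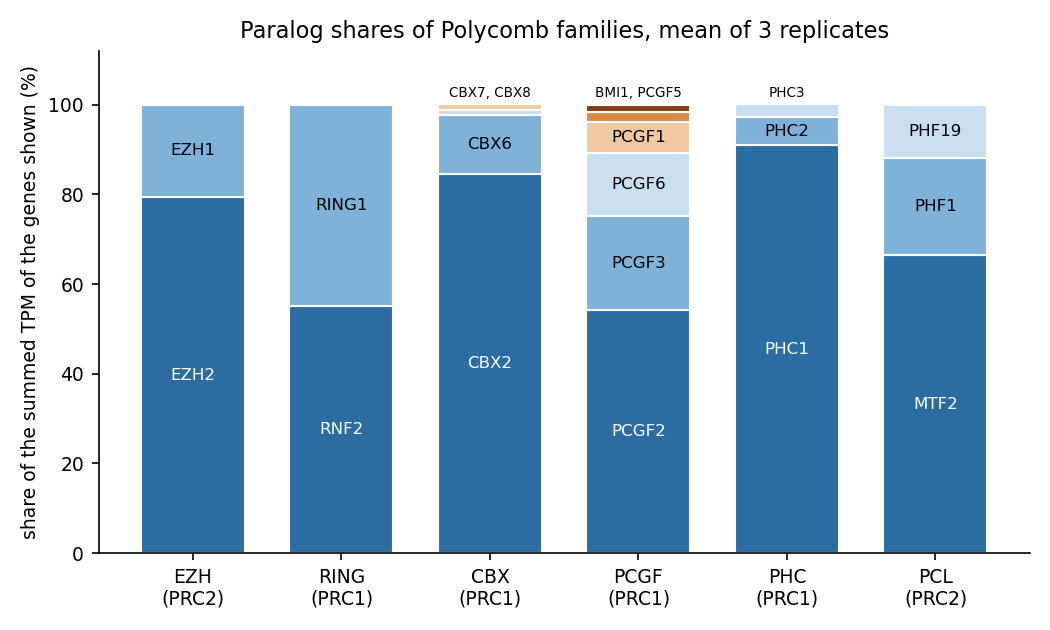
Share of each paralog in the summed TPM (%) of the genes shown from 6 Polycomb gene families, as the mean of 3 replicates, with genes under 5% named above the bars. EZH2 took 79.4% of the EZH pair, CBX2 84.5% of the 4 CBX genes reported and PHC1 91.0% of the PHC genes, whereas RNF2 took 55.1% of the RING pair and PCGF6 14.0% of the PCGF genes.

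The partners of these PRC1 genes were at varied levels. Of 6 PHC and SCM genes, which encode the polymerizing subunits of canonical PRC1, PHC1 was high at 368 ± 7.44 TPM and made up 91.0% ± 0.112 of the 3 PHC genes. PHC2 (25.2 TPM), SCML2 (23.7 TPM), SCMH1 (19.3 TPM) and PHC3 (11.4 TPM) were medium, and SCML1 was low at 0.879 TPM. Of 13 partners of variant PRC1, 6 were high, 6 medium and 1 low, with a median of 20.9 TPM. The highest were DCAF7 (60.6 ± 4.06 TPM), BCOR (59.5 ± 1.79 TPM) and KDM2B (58.1 ± 0.849 TPM), which brings PRC1.1 to CpG islands. The lowest were BCORL1 (10.8 TPM), FBRS (9.31 TPM) and YAF2 (1.52 ± 0.389 TPM), whose paralog RYBP had 50.6 ± 3.13 TPM. With canonical lengths KDM2B was at 90.0, YAF2 at 2.43, BCORL1 at 6.95 and, of the SCM genes, SCML2 at 14.9 TPM. Over all 42 other genes of the machinery listed, 17 were high, 20 medium and 5 low, and the median was 20.4 TPM, against 43.2 TPM for the 10 genes.

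**Figure D4:**
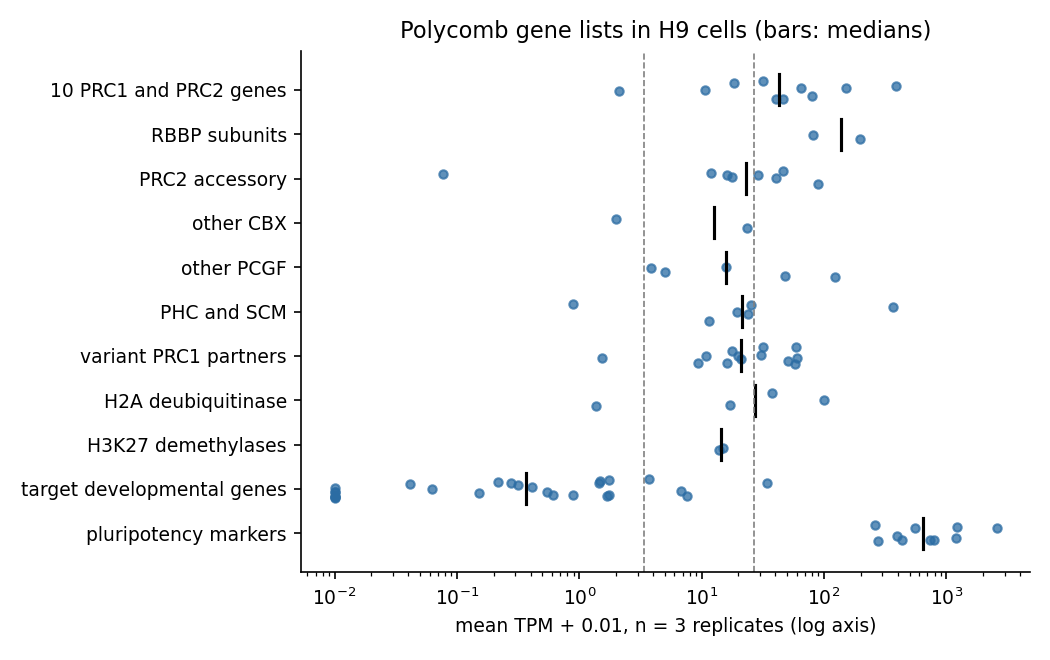
Mean TPM + 0.01 (log axis, n = 3) of every gene in 11 lists, with a vertical bar at each list's median and dashed lines where the classes meet, at 3.35 and 27 TPM. The 10 PRC1 and PRC2 genes have a median of 43.2 TPM, the target developmental genes one of 0.354 TPM, and the pluripotency markers one of 649 TPM.

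The replicates were then compared gene by gene, since their spread is the only error in the series. The CV of the library-scaled counts (CPM, reads per 1e6 reads) was set against the CV expected from counting alone, and a chi-square test of the 3 counts was adjusted over all 18451 genes with at least 20 reads. At an adjusted p below 0.05, 2 of the 10 genes differed between replicates beyond counting error, against 10.9% of all genes tested. They were JARID2, with a CV of 5.22% against 1.26% from counting, and CBX2, with 7.12% against 2.15%. These have the most reads of the 10. Of the other 8, EZH1 had the widest spread, with a CV of 12.0% against 7.29% from counting, and did not pass the test. For EZH2, EED, SUZ12, CBX7 and PCGF6 the CV was below that expected from counting.

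The 2 genes deviated in different replicates. JARID2 was at 654, 601 and 596 CPM, so that replicate 1 was above the mean of the others by 0.13 on the log2 scale. CBX2 was at 208, 204 and 232 CPM, so that replicate 3 was above the others by 0.17. RING1 was also higher in replicate 3, by 0.20, and EZH1 by 0.28, whereas RNF2 was lower there by a log2 difference of -0.11.

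Exon GC content was set beside the deviation of replicate 3. EZH1, at 49.1% GC, deviated most there, by 0.28 on the log2 scale, and CBX7, at 58.2% GC, by 0.03. Neither EZH1 nor CBX7 differed between replicates beyond counting error. Over the 10 genes, Pearson's r between exon GC content and this deviation was 0.59 and Spearman's rho 0.48, a description across genes of 1 library. With expected counts corrected in 20 bins of exon GC content, the deviation of CBX2 in replicate 3 was 0.05 and that of RING1 0.03, while that of EZH1 was 0.31. JARID2 was then the 1 gene of 10 called, against 6.27% of all 18266 genes tested. Without replicate 3 JARID2 was the 1 gene called, against 1.34% of all genes tested. Without replicate 1 it was CBX2, against 9.19%, and without replicate 2 both were called, against 10.7%.

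**Figure D5:**
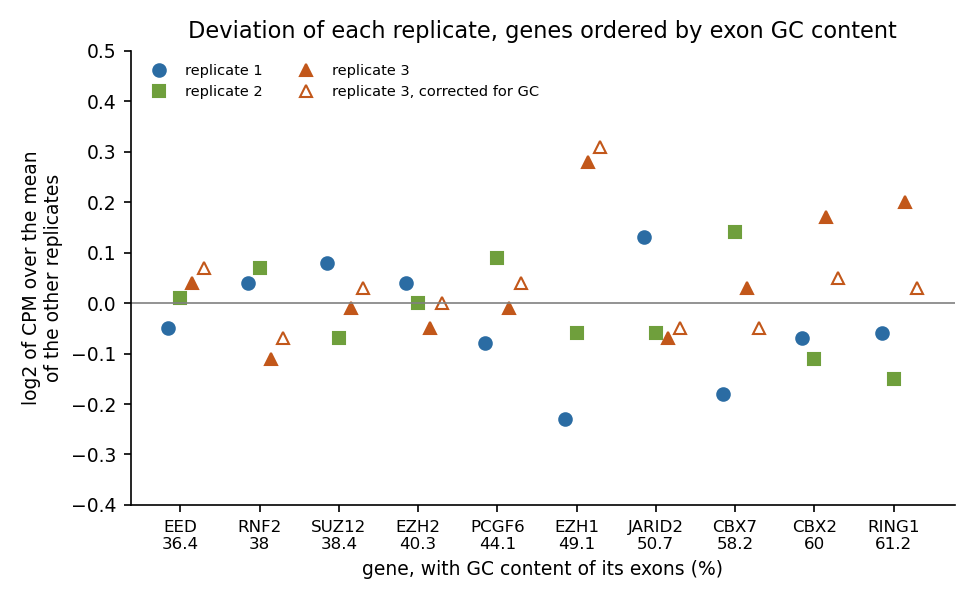
Log2 of the CPM of each replicate over the mean of the other replicates, for the 10 genes ordered by exon GC content (given under each name in %), with open triangles for replicate 3 after correction for GC content. CBX2 and RING1 lie at 0.17 and 0.20 in replicate 3 and at 0.05 and 0.03 after the correction, whereas EZH1 stays at 0.31.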

How the data were processed

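Total RNA of 3 replicates of untreated H9 cells was depleted of ribosomal RNA and sequenced. The authors trimmed reads with Trim Galore (version 0.4.4), aligned them to GRCh38 with TopHat2 (version 2.1.1) and deposited raw counts of reads per gene for each replicate. For the counting tool, the annotation behind it and its strand setting, nothing is given in the sources used here. The study's own TPM values, made with Cufflinks (version 2.2.1), were not used.

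Gene identifiers were joined to GENCODE release 44, and 56948 of 58051 matched, leaving 1103 without a TPM. Totals were 10390984, 12024802 and 8655155 reads, and the smallest gene total here, 124 reads, sets the least precise level. Intervals and the limit of 3 reads for a count of 0 cover counting error only, since PCR reads without molecular identifiers are not independent molecules. The replicate test was a chi-square test with Benjamini-Hochberg adjustment, called below 0.05, and it was tested on simulated data. TMM factors came from edgeR (version 4.0.16) and size factors from DESeq2 (version 1.42.0), in R 4.3.3, with Python 3.11.15, matplotlib 3.10.9, pandas 2.3.3, numpy 2.4.6, blastn 2.17.0 and scipy 1.17.1. Promoters are those of RefSeq on GRCh38.p14.

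With 1 condition, no groups were compared. The genes and lists were chosen with earlier results of these data known. Genes named are the 10, the CBX, PCGF and RBBP genes listed (1 gene of these lists is not reported here and enters no share or count of them), the 3 highest and 3 lowest of each other list (all where a list has 6 or fewer), genes whose exons overlap those of the 10, and their pseudogenes. PHF1 and RYBP were named after their values were seen. Alternatives were other gene lengths, CPM in place of TPM, thinning of counts to 10%, TMM and DESeq2 scaling, mitochondrial genes left out, other thresholds, other gene sets for the classes, a correction for GC content, no filter on low counts, and each replicate left out. Adding the reads of a gene that shares sequence, and recomputing the order and the lists under the other settings, were chosen after seeing the data.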

Additional observations from a re-analysis of the deposited data

How the results depend on the processing

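Of 76 recomputed values of the main results, 62 stayed within the spread between replicates (or within 1.5 times a count) and 14 moved. No ratio or share among them turned its direction. The 76 leave out the levels of single genes. With the longest transcript, the canonical transcript or CPM, 9 of the 10 genes moved beyond their SD in each case. The number of the 10 genes in the high class was 7, and it ran from 5 with CPM to 9 with classes cut over all genes. The log2 ratio of EZH2 to EZH1 was 1.95, and 2.62 with the longest transcript as length, 3.38 with the canonical transcript and 2.58 with CPM. For CBX2 to CBX7 it was 6.15, and 5.58 with the longest and with the canonical transcript, 5.75 with CPM and 5.71 with the reads of the overlapping gene added. That of RNF2 to RING1 was 0.30, and 1.41 with CPM, which keeps the longer exons of RNF2 in the value. The share of PCGF6 was 14.0%, and 15.0% with the longest transcript and 10.2% with CPM. Other machinery genes in the high class numbered 17, and 35 when the classes were cut over all genes, which adds many genes of low level. The number of the 10 genes that differed between replicates was 2, and 1 with the GC correction; leaving out 1 replicate at a time gave 1 to 2, while the share over all genes tested ran from 1.34% (without replicate 3) to 10.7%. Of 45 pairs of the 10 genes, 41 kept their order with the longest and with the canonical transcript, and 39 with CPM, so that 4 and 6 pairs turned. The cause was not tested except where the setting itself gives it. No paired analysis was possible because all 3 replicates belong to 1 condition. Depth limits CBX7 most, and RNA levels say nothing of protein.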

Other observations

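The genes that Polycomb complexes are known to hold silent were mostly low in these cells. Of 26 developmental regulators listed as Polycomb targets, 7 were nonexpressed, 15 low, 3 medium and 1 high, where 28.8% of all protein-coding genes were high, and their median was 0.354 TPM. No read in any replicate was counted for 7 of 26, and 13 had at most 3 reads in every replicate, so that their levels could not be told from the limit that a count of 0 allows. Of all 19629 protein-coding genes, 2661 were nonexpressed and 5656 low. Among those 19629, 2653 had no read and 4420 had at most 3 reads in every replicate. Those without a read were NEUROG1, NEUROG2, HOXA9, WT1, CDX2, the muscle regulator MYOD1 and the cell cycle inhibitor gene CDKN2A. The exception was PAX7, a regulator of neural crest and muscle precursors, with 34.7, 30.8 and 36.6 TPM and a mean of 34.0 ± 2.94 TPM (SD, n = 3). FOXA2 (7.54 ± 1.71 TPM) and EOMES (6.74 ± 1.92 TPM), regulators of endoderm and mesendoderm, were medium and varied more between replicates. They had 160 and 195 reads in total against 1714 for PAX7, so their counting error was larger. Whether it accounts for their wider spread was not tested. The source of the PAX7, FOXA2 and EOMES reads, in all cells or in a few, was not tested.

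Enzymes that remove the Polycomb marks were also expressed. The H3K27 demethylase genes KDM6A and KDM6B had 14.9 ± 0.349 and 13.8 ± 0.656 TPM, both medium and below EZH2. With canonical lengths KDM6A was at 41.0 TPM, in the high class, and KDM6B at 9.18 TPM, both still below EZH2 (99.8 TPM). BAP1, the deubiquitinase of histone H2A, had 99.5 ± 3.74 TPM and was high in 3 of 3 replicates. Of its ASXL partners, ASXL2 had 37.6 ± 1.41 TPM, ASXL1 17.0 ± 0.413 TPM and ASXL3 1.35 ± 0.147 TPM, an order without overlap between replicates. ASXL2 was at 23.4 TPM, in the medium class, with canonical lengths.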
